A study of Mus musculus with 24 samples.

Results

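The 10 genes described here form the ER chaperone and XBP1 response set: Xbp1, Hspa5, Hsp90b1, Dnajb9, Herpud1, Manf, Sdf2l1, Hyou1, Pdia6 and Edem1. They were chosen by symbol, with earlier results of these data known. All 10 were found among the 25239 genes of the table and among the 14104 genes that were tested. RNA was sequenced from 6 mouse small cell lung cancer (SCLC) lines, each a single line from a tumor of a mouse with floxed Rb1 and Rbl2, the Trp53 XTR allele and FlpO-ER at Rosa26. In every line, Cre from an adenovirus with the CMV promoter had deleted Rb1 and Rbl2 and trapped Trp53, so the controls lack all of these as well. Addition of 4-hydroxytamoxifen (4-OHT) releases the trap and restores p53. Lines 4711-1, 4711-18 and 4716-11 are Type D, which lose viability after p53 restoration, and lines 4711-11, 4716-10 and 4716-14 are Type V, which stay viable and senesce. Each line gave 4 libraries, 1 for each treatment, harvested at 72 h. Control cells received the ethanol vehicle, Control + CsA cells received cyclosporin A (CsA), Restored cells received 4-OHT, and Restored + CsA cells received both agents. CsA binds cyclophilins, a family of prolyl isomerases, and was used in the study as an inhibitor of cyclophilin-dependent death. The 24 libraries therefore fall into 8 groups of 3 lines, and the lines were the replicates.

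Secretory and membrane proteins fold in the endoplasmic reticulum (ER). When unfolded proteins gather there, the sensors IRE1, PERK and ATF6 signal the unfolded protein response. IRE1 splices Xbp1 mRNA so that it encodes an active transcription factor, PERK acts through ATF4, and cleaved ATF6 enters the nucleus. XBP1 and ATF6 raise the transcription of ER chaperones and of genes that clear misfolded proteins. Levels are given in TPM, a measure of transcript abundance scaled to transcript length and to the library total. These values are per gene, so spliced and unspliced Xbp1 cannot be told apart here.

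Trp53 followed the labels in every library: it was at 10.5 to 15.3 TPM in the 12 libraries without 4-OHT and at 181 to 253 TPM in the 12 libraries with it. Among the SCLC markers, Chga was listed at 0 in all libraries, Neurod1, Calca and Dll3 stayed at or below 0.148 TPM, Syp ranged from 0.109 to 1.41 TPM and Ncam1 from 4.46 to 27.3 TPM. Insm1 was at 0 to 3.39 TPM in Type D and 1.13 to 49.6 TPM in Type V, which overlap, and Uchl1 at 0 to 2.66 TPM in Type D and 3.12 to 40.9 TPM in Type V, which do not. Of 4 leukocyte markers, Cd3e was listed at 0 and Ptprc stayed at or below 0.154 TPM, whereas Cd68 ranged from 5.6 to 55.3 TPM. The 3 endothelial markers summed to at most 0.615 TPM in a library, and the 4 markers of plasma and acinar cells, which carry a heavy ER load, to at most 0.424 TPM.

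The chaperones of the set were among the most abundant transcripts of these cells. Hspa5, which encodes BiP, the main ER Hsp70, averaged 874 TPM over the 24 libraries (range 600.3 to 1427). Hsp90b1, the ER Hsp90 known as GRP94, averaged 801 TPM. Manf, a secreted ER protein that binds BiP, and Pdia6, a protein disulfide isomerase, averaged 348 and 342 TPM. Herpud1, a membrane protein of ER-associated degradation, averaged 216 TPM, and Hyou1, a large Hsp70-like exchange factor for BiP, 122 TPM. The least abundant were Xbp1 itself at 84.5 TPM, the mannosidase-like degradation factor Edem1 at 64.3 TPM, the BiP cofactor Sdf2l1 at 62.7 TPM and the BiP cochaperone Dnajb9 (ERdj4) at 40.2 TPM. Together the 10 genes took 1919 to 4522 TPM of a library, or 0.192% to 0.452% of the total.

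**Figure D1:**
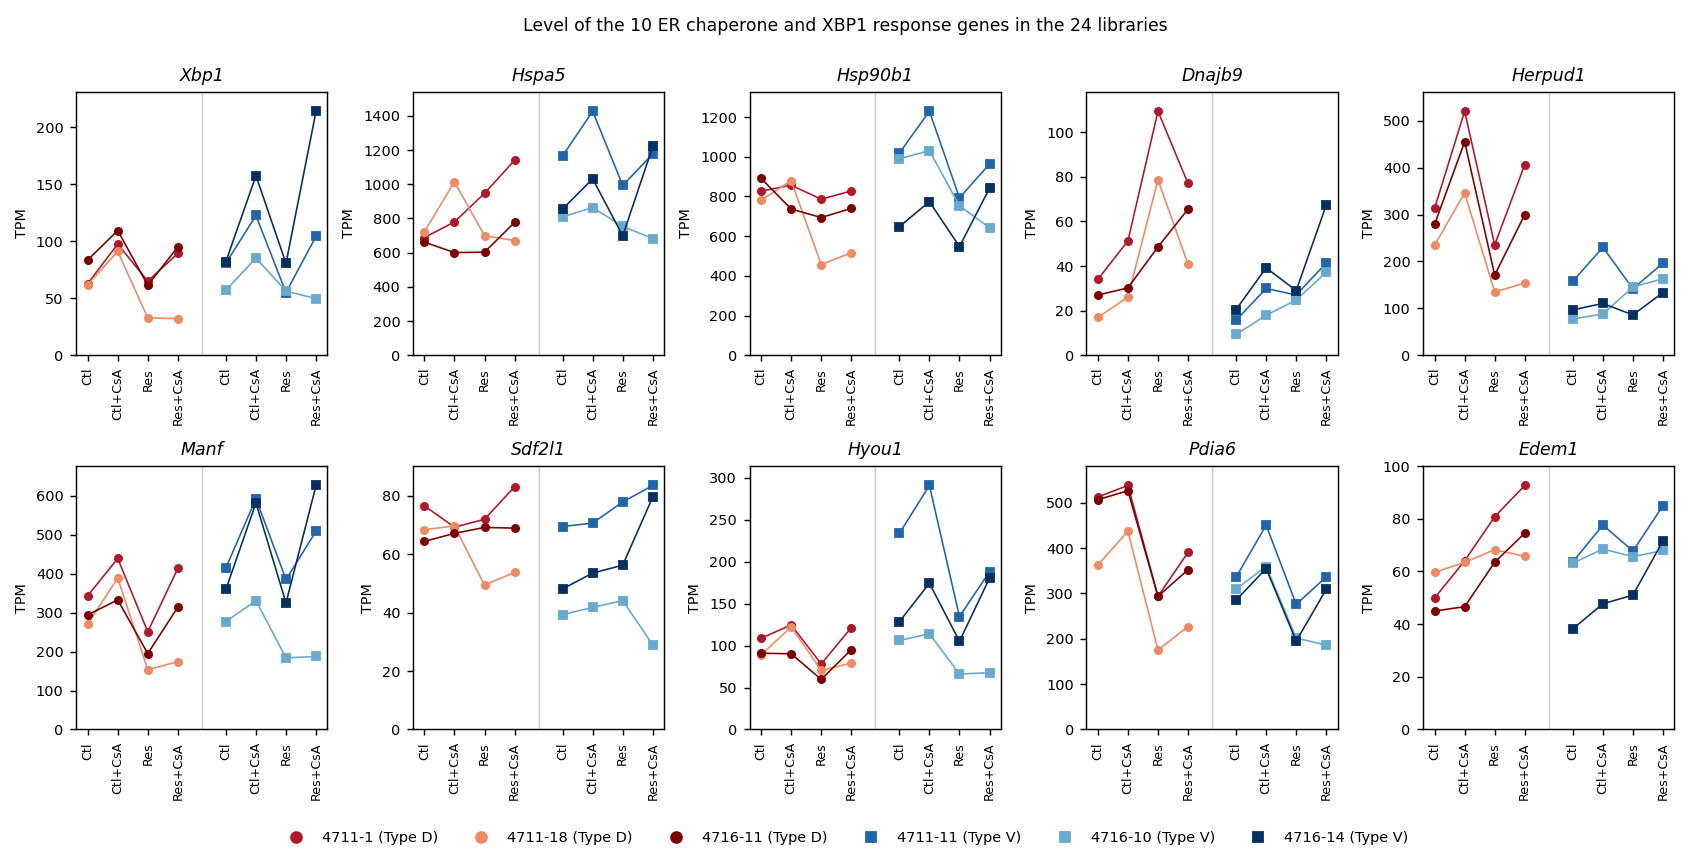
Level of each of the 10 genes in TPM (vertical axes, from 0) in the 24 libraries. Each point is 1 library and each line joins the 4 treatments of a cell line, with Type D lines in red circles on the left and Type V lines in blue squares on the right of each panel (Ctl, Control; Res, Restored). Xbp1 was higher with CsA than in Control in every line, and Dnajb9 was higher in Restored than in Control in every line.

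Promoters of these genes are known for the ER stress response element, ERSE, in which CCAAT and CCACG are separated by 9 bases. The RefSeq promoter table (GRCm38.p6, 250 bases before to 50 bases after a start site) held 8 of the 10 genes, and Manf and Hyou1 were not matched. Both strands were searched. ERSE was present in 3 of the 8 promoters, Hspa5, Hsp90b1 and Pdia6, against 0.119% of the 32851 promoters of the table. The related ERSE-II, ATTGG and CCACG with 1 base between them, was present in Herpud1 only among the 8, against 0.0365% of all promoters. The following stretches hold these elements. They show the letters of ERSE that Hspa5, Hsp90b1 and Pdia6 share, and those of ERSE-II in Herpud1. Capitals mark the element, and sequences run 5′ to 3′ on the strand of the gene.
Hspa5 (chr2:34772015-34772053, plus strand): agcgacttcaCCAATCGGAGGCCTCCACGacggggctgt
Hsp90b1 (chr10:86705523-86705666, minus strand): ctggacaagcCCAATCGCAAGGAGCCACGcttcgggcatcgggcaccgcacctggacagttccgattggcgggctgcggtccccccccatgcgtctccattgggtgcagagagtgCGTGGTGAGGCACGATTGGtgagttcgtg
Pdia6 (chr12:17266481-17266519, plus strand): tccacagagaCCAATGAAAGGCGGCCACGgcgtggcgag
Herpud1 (chr8:94386367-94386397, plus strand): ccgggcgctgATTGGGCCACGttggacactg

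The Hspa5 element began 65 bases before the start site and that of Pdia6 98 bases before it. Hsp90b1 had 2 elements, starting 212 and 107 bases before the start site, the second of them on the opposite strand. The ERSE-II of Herpud1 began 52 bases before the start site. The core ACGTG, which overlaps the element of Herpud1, was found in 4 of 8 promoters (Hspa5, Dnajb9, Herpud1 and Pdia6) against 19.6% of all promoters. The longer element TGACGTGG was in 0 of 8, against 0.676% of all promoters. A match of letters is a description of the window and no evidence of binding.

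CsA was first compared with vehicle in cells whose p53 stayed trapped. The mean level of all 10 genes was higher in Control + CsA than in Control over the 6 lines, with a median difference of 0.24 on the log2(TPM + 1) scale against -0.02 over all tested genes. The differences were largest for Dnajb9, Xbp1, Herpud1 and Manf and near zero for Sdf2l1. In each of these 4 genes and in Pdia6 and Edem1, every line was higher with CsA. That made 6 of 10 genes higher in 6 of 6 lines, while 5.44% of all tested genes were. Because the set was chosen with earlier results of these data known, these shares are a description and not a test. No single gene of the set passed an adjusted p of 0.05 in limma, with or without the cell line as a block. In bulk libraries such as these, a change in the share of cells that express a gene and a change in its RNA per cell cannot be told apart. This limit applies to the restoration comparisons below as well.

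Xbp1 stood at 62.8, 62.0 and 83.6 TPM in Control and at 97.6, 91.1 and 109 TPM in Control + CsA of lines 4711-1, 4711-18 and 4716-11. In the Type V lines 4711-11, 4716-10 and 4716-14 it went from 80.8, 57.1 and 82.2 TPM to 123, 85.4 and 158 TPM. The Control and Control + CsA libraries did not overlap in either type. On the log2 scale the difference was 0.61 (SE 0.31, n = 6 lines, limma adjusted p = 1), and 0.38 in the line with the smallest difference, 4716-11. With the replicate block, which compares libraries within a line, the SE was 0.20 and the adjusted p 0.292.

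Dnajb9 started from 34.0, 17.0 and 27.0 TPM in the Type D lines under vehicle and stood at 51.3, 26.0 and 30.2 TPM with CsA. The corresponding Type V values were 15.7, 9.34 and 20.5 TPM without and 29.9, 17.9 and 39.2 TPM with CsA. The groups overlapped in both types because the lines differed in their starting level, but each line was higher with CsA. The log2 difference was 0.66 (SE 0.26, limma adjusted p = 1; replicate block SE 0.15, adjusted p = 0.0897). Within the lines it ranged from 0.16 in 4716-11 to 0.90 in 4716-14.

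Herpud1 was at 313, 235 and 279 TPM in the vehicle-treated Type D lines, against 520.5, 346 and 455 TPM with CsA. In Type V it was at 158, 77.3 and 96.8 TPM in Control and 230.2, 88.1 and 110.4 TPM with CsA. The 2 Type D groups did not overlap, and the Type V groups did. The difference over 6 lines was 0.48 on the log2 scale (SE 0.26, limma adjusted p = 1; replicate block adjusted p = 0.281). It was 0.66 in the Type D and 0.31 in the Type V lines, and the difference between the types was 0.36 with a 95% confidence interval of -0.74 to 1.45, adjusted p = 1.

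Manf went from 343, 271 and 294 TPM to 439, 389 and 333 TPM in Type D. In Type V it went from 415, 277 and 360 TPM to 593, 331 and 582 TPM. Each line was higher with CsA and the groups overlapped in both types. The log2 difference was 0.42 (SE 0.28, limma adjusted p = 1; replicate block adjusted p = 0.343).

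The abundant chaperones differed less. Hspa5 was at 688, 722 and 661 TPM in the vehicle-treated Type D lines, against 779.6, 1014 and 600.3 TPM with CsA, so that line 4716-11 was lower. In Type V it was at 1166, 809 and 856 TPM in Control and 1427, 864 and 1032 TPM with CsA. The log2 difference was 0.20 (SE 0.19, limma adjusted p = 1). Hsp90b1 differed by 0.09 (SE 0.17), Hyou1 by 0.25 (SE 0.27), Pdia6 by 0.22 (SE 0.18), Edem1 by 0.20 (SE 0.15) and Sdf2l1 by 0.03 (SE 0.23), each with an adjusted p of 1. Line 4716-11 was lower with CsA for Hspa5, Hsp90b1 and Hyou1, and line 4711-1 for Sdf2l1.

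By line, the number of the 10 genes that were higher with CsA was 9 in 4711-1, 10 in 4711-18 and 7 in 4716-11. All 10 were higher in each of the Type V lines. The median difference of the set was 0.27, 0.47 and 0.06 in the Type D lines and 0.37, 0.15 and 0.31 in the Type V lines, on the log2 scale. Over all tested genes the median difference of a line lay between -0.07 and 0.02, and 36.3% to 54% of genes were higher with CsA. Line 4716-11 therefore had the smallest median for the set, and it also had the lowest share of all genes that were higher. Line 4716-14 had nearly as low a share, 37.1%, with a set median of 0.31.

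In the test without the block, 0% of the 14104 genes passed an adjusted p of 0.05 in this comparison, 193 genes had an unadjusted p under 0.05, and 1 of these, Dnajb9, belonged to the set. With the replicate block 0.269% of all genes passed, and 0 of the 10 did so, although 6 of the 10 had an unadjusted p under 0.05, as did 1439 of the 14104 genes. Taken by type, no member passed in Type D (0% of all genes without and 0.0142% with the block), in Type V (0% and 0%) or in the difference between the types (0% and 0%). At an unadjusted p under 0.05 without the block, these comparisons held 114, 54 and 25 genes, of which 0, 1 and 0 were of the set. Dnajb9 differed by 0.44 in the Type D and 0.89 in the Type V lines, and the difference of -0.45 had a 95% confidence interval of -1.55 to 0.66. Xbp1 differed by 0.52 in Type D and 0.70 in Type V, with an interval of -1.46 to 1.11 for the difference of -0.18. These intervals are from the fit without the block, which does not pair the libraries of a line. They leave room for unequal effects of CsA in the 2 types as well as for equal ones.

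**Figure D2:**
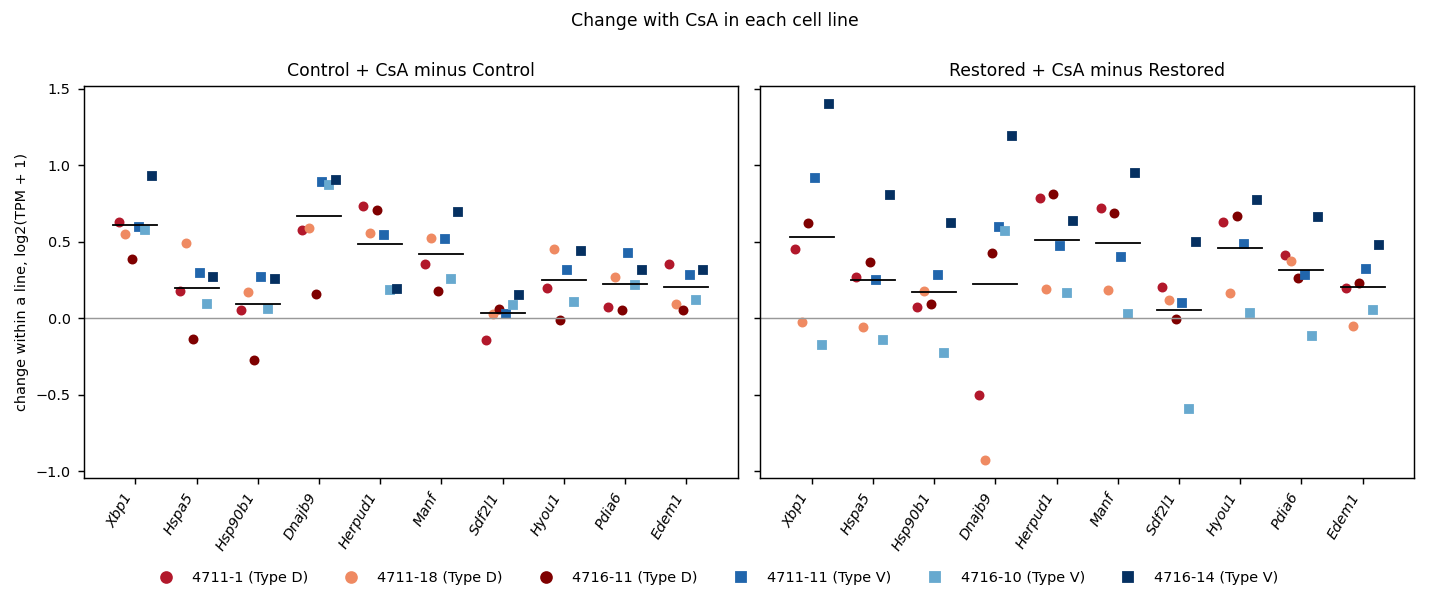
Difference with CsA in each of the 6 lines on the log2(TPM + 1) scale (vertical axis) for the 10 genes, without p53 restoration (left) and with it (right). Red circles are Type D lines, blue squares are Type V lines and the black bar is the mean of the 6 lines. On the left the points for Xbp1, Dnajb9, Herpud1, Manf, Pdia6 and Edem1 all lie above 0, and on the right Dnajb9 lies below 0 in lines 4711-1 and 4711-18.

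CsA was then compared within p53-restored cells. The mean of all 10 genes was again higher with CsA, with a median log2 difference of 0.28 against -0.01 over all tested genes, but the lines were less alike. Herpud1, Manf and Hyou1 were higher in 6 of 6 lines, so 3 of 10 genes against 3.8% of all tested genes. None passed in limma without the block (0% of all genes, 179 at an unadjusted p under 0.05, 0 of them in the set) or with it (0.0142% of all genes). Hyou1 came nearest with 0.46 (SE 0.27, replicate block adjusted p = 0.117). Herpud1 differed by 0.51 (SE 0.26), Manf by 0.49 (SE 0.28), Pdia6 by 0.31 (SE 0.18), Hspa5 by 0.25 (SE 0.19), Edem1 by 0.20 (SE 0.15), Hsp90b1 by 0.17 (SE 0.17) and Sdf2l1 by 0.05 (SE 0.23), each with a limma adjusted p of 1.

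For Xbp1 the lines did not all move the same way. It was at 65.0, 32.8 and 61.5 TPM in Type D Restored and at 89.4, 32.2 and 95.0 TPM with CsA. The Type V values were 55.0, 56.4 and 80.7 TPM in Restored and 104, 49.7 and 214 TPM with CsA. Lines 4711-18 and 4716-10 were slightly lower with CsA and the other 4 were higher, which gave a mean log2 difference of 0.53 (SE 0.31, limma adjusted p = 1). These same lines had the smallest medians of the set with CsA after restoration, 0.14 in 4711-18 and -0.04 in 4716-10, while 4716-14 had the largest, 0.72.

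Dnajb9 was the gene in which the means of the types stood on opposite sides of zero. It was at 109, 78.7 and 48.6 TPM in Type D Restored and at 77.1, 40.9 and 65.5 TPM with CsA, lower in 2 of 3 lines. In Type V it was at 27.0, 24.8 and 29.0 TPM in Restored and at 41.4, 37.3 and 67.4 TPM with CsA, higher in 3 of 3 lines without overlap of the groups. The log2 difference with CsA was -0.33 in the Type D lines and 0.79 in the Type V lines. The contrast of the types, added after these values were seen, was -1.12 (95% confidence interval -2.22 to -0.02, limma adjusted p = 1; replicate block adjusted p = 0.63), so it did not pass.

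The change in the CsA effect with p53 status was also tested directly. For Dnajb9 the effect of CsA was 0.44 lower on the log2 scale with restoration than without it. In the fit without the block, this difference of -0.44 had a 95% confidence interval of -1.22 to 0.34. For Hyou1 the effect was 0.21 higher, with an interval of -0.59 to 1.01 in the same fit. That fit does not pair the libraries of a line. Across all genes 0% passed without the block (45 at an unadjusted p under 0.05, 0 of them in the set) and 0% with it.

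Restoration of p53 moved the set in both directions. In Type D, Dnajb9 rose and Pdia6 fell, and these were the members that passed without the block. The mean of 7 of the 10 genes was lower in Restored than in Control, with a median log2 difference of -0.41 against 0.07 over all tested genes. In Type V, no member passed without the block, the mean was lower for 6 of 10 genes and the median was -0.20 against 0.05. These comparisons share their Control libraries with CsA without restoration, and their Restored libraries with CsA after restoration. A deviation in a shared library enters both values, so the restoration and CsA differences are not independent of each other.

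In Type D, Dnajb9 went from 34.0, 17.0 and 27.0 TPM in Control to 109, 78.7 and 48.6 TPM in Restored, and the groups did not overlap. The difference of 1.54 on the log2 scale (SE 0.37, limma adjusted p = 0.00897) was the only one of the set that also reached 1, while 4.49% of all genes did so upwards. It was 1.66, 2.15 and 0.82 in the 3 lines. Without line 4711-18 the difference was 1.24 with an adjusted p of 0.13, and when only the 2 groups compared were fitted the adjusted p was 0.0683.

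Pdia6 went from 513, 363 and 506.5 TPM to 293, 175 and 293 TPM in Type D without overlap. The difference was -0.88 (SE 0.25, limma adjusted p = 0.0248). The adjusted p lay between 0.0665 and 0.126 when any single Type D line was left out, at differences of -0.92 to -0.79, and was 0.102 when only the compared groups were fitted. Thus 1 of 10 genes passed upwards, against 7.82% of all genes, and 1 of 10 downwards, against 5.05%.

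More of the set passed in Type D with the replicate block, as did more of all genes. Dnajb9 (adjusted p = 2.89e-05) and Edem1 (0.45, adjusted p = 0.0132) were higher, 2 of 10 against 27.6% of all genes. Pdia6 (adjusted p = 8.96e-05), Manf (-0.62, adjusted p = 0.0236), Herpud1 (-0.64, adjusted p = 0.0258) and Hyou1 (-0.47, adjusted p = 0.0277) were lower, 4 of 10 against 17.6% of all genes. Hsp90b1 was at -0.40 (replicate block adjusted p = 0.075) and Xbp1 at -0.43 (adjusted p = 0.231). Sdf2l1 at -0.15 and Hspa5 at 0.09 were near zero, and the sign of Hspa5 changed when libraries were rescaled by median ratios or when line 4711-1 was left out.

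In Type V, Dnajb9 went from 15.7, 9.34 and 20.5 TPM in Control to 27.0, 24.8 and 29.0 TPM in Restored, also without overlap. The difference was 0.85 (SE 0.37, limma adjusted p = 0.181; replicate block adjusted p = 0.00449). Pdia6 went from 336, 309 and 285 TPM to 276, 202 and 195 TPM, with a difference of -0.48 (SE 0.25, adjusted p = 0.276; replicate block adjusted p = 0.0101). Hyou1 went from 233, 106 and 128 TPM to 134, 66.0 and 105 TPM, with a difference of -0.58 (SE 0.38, adjusted p = 0.419; replicate block adjusted p = 0.00919). Each of these genes moved the same way in all 3 Type V lines.

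Without the block, 0 of 10 members passed in Type V against 9.95% of all genes, and 1 of the 10 had an unadjusted p under 0.05, as did 3117 of the 14104 genes. With the replicate block 1 of 10 passed upwards, against 22.8% of all genes, and 2 of 10 downwards, against 17.8%. The other members lay between -0.33 for Hsp90b1 and 0.19 for Herpud1, with Manf at -0.28, Hspa5 at -0.21, Xbp1 at -0.20, Sdf2l1 at 0.18 and Edem1 at 0.18. Herpud1 differed between Type V lines, from 77.3 to 145.5 TPM in line 4716-10 but from 158 to 142 TPM in 4711-11 and from 96.8 to 86.0 TPM in 4716-14.

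**Figure D3:**
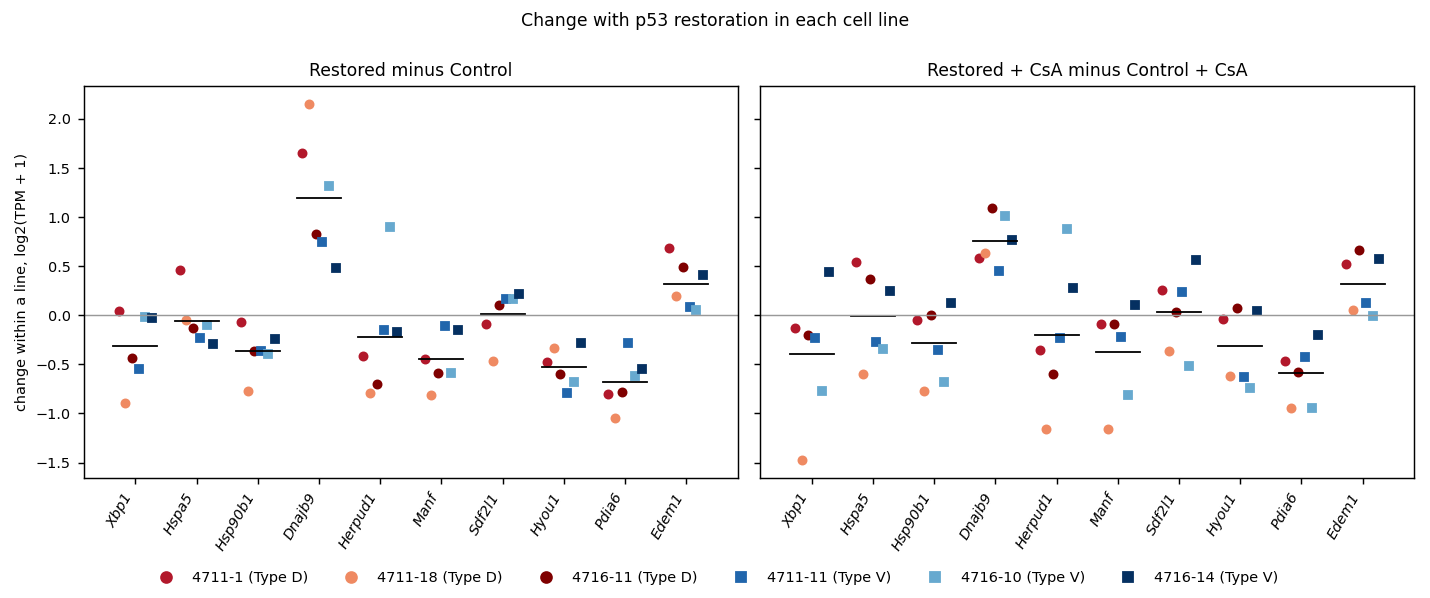
Difference with p53 restoration in each of the 6 lines on the log2(TPM + 1) scale (vertical axis) for the 10 genes, without CsA (left) and under CsA (right). Red circles are Type D lines, blue squares are Type V lines and the black bar is the mean of the 6 lines. Dnajb9 lies above 0 and Pdia6 below 0 in all 6 lines of both panels.

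Counted over lines, Dnajb9 and Edem1 were higher in Restored than in Control in 6 of 6 lines, 2 of 10 genes against 23.8% of all tested genes. Hsp90b1, Manf, Hyou1 and Pdia6 were lower in 6 of 6 lines, 4 of 10 against 16.1%. Under CsA, Dnajb9 was higher in 6 of 6 lines, with differences from 0.45 to 1.09, and was the only such member, against 22.2% of all genes. Pdia6 was the only member lower in 6 of 6 lines under CsA, against 13.2% of all genes. The direction of Dnajb9 after restoration was thus the opposite of that of most chaperones of the set.

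The 2 types were compared for their response to restoration. The difference between the types was 0.70 for Dnajb9, larger in Type D (95% confidence interval -0.41 to 1.80), -0.83 for Herpud1 (interval -1.93 to 0.26) and -0.40 for Pdia6 (interval -1.14 to 0.34). No member passed, where 0.0284% of all genes did. With the replicate block 5.57% of all genes passed and again 0 of the 10, with adjusted p of 0.179 for Dnajb9 and 0.123 for Herpud1. The leukocyte list moved with restoration: its 4 genes summed to 7.93 to 10.1 TPM in Type D Control and 29.2 to 55.4 TPM in Type D Restored, and to 6.96 to 10.2 TPM and 16.3 to 31.4 TPM in Type V. Nearly all of this was Cd68, a lysosomal protein, with Cd3e at 0 and Ptprc near 0. Uchl1 fell with restoration in Type V, from 18.9 to 40.9 TPM in Control to 3.89 to 6.58 TPM in Restored (-2.08, SE 0.46, limma adjusted p = 0.0062). The part of these markers in the differences of the set was not tested.

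In Control cells the types differed in Herpud1. It was at 313, 235 and 279 TPM in Type D and at 158, 77.3 and 96.8 TPM in Type V, without overlap. The difference of 1.36 on the log2 scale (SE 0.37, limma adjusted p = 0.0188) was the only one of the 10 that was called, meaning an adjusted p under 0.05 and a difference of at least 1, against 4.42% of all genes called higher in Type D. The adjusted p rose to between 0.066 and 0.0992 when line 4711-1, 4716-11, 4716-10 or 4716-14 was left out, with differences of 1.14 to 1.35, and to 0.0528 when only the compared groups were fitted. Each line gives this comparison 1 library, so no block could be used. The spread in the main fit came from all 24 libraries, in which each line appears 4 times. Adjusted p of the main limma fit here count these libraries as independent, although libraries of 1 line correlated at r of 0.599 to 0.929. The fit of only the compared groups holds each line once, and there Herpud1 did not pass.

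Other members differed by less than the spread between lines allowed to call. Dnajb9 was 0.75 higher in Type D (SE 0.37, limma adjusted p = 0.202) and Pdia6 0.55 higher (SE 0.25, adjusted p = 0.157). Hyou1 was at -0.61 (SE 0.38, adjusted p = 0.316) and Hspa5 at -0.43 (SE 0.27, adjusted p = 0.318). Without line 4711-18 Pdia6 passed at 0.72 with an adjusted p of 0.0416, and without line 4716-10 Hyou1 passed at -0.85 with an adjusted p of 0.0392. The median over all tested genes was -0.12 in this comparison. Marker lists also differed between the types. The 4 epithelial markers summed to 6695 to 11816 TPM in Type D Control against 663 to 1577 TPM in Type V Control, carried by Krt8, Krt18 and Cdh1, while Epcam overlapped at 0.435 to 4.57 against 0.564 to 1.64 TPM. Of the 4 mesenchymal markers, Sparc was at 227 to 483 TPM in Type D Control against 1072 to 1499 TPM in Type V Control, Col1a1 at 0.352 to 1.03 against 11.8 to 349 TPM and Col1a2 at 0 to 0.0345 against 19.0 to 170.2 TPM, while Vim overlapped. The neuroendocrine marker Uchl1 was at 0.168 to 1.88 TPM against 18.9 to 40.9 TPM. The part of these markers in the Herpud1 difference was not tested.

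Over the 8 groups the order of Dnajb9 was led by Type D Restored at 78.9 ± 30.4 TPM (SD, n = 3 lines) and Type D Restored + CsA at 61.2 ± 18.5 TPM. Type V Restored + CsA followed at 48.7 ± 16.3 TPM and Type D Control + CsA at 35.8 ± 13.5 TPM. Type V Control + CsA at 29.0 ± 10.7 TPM, Type V Restored at 26.9 ± 2.1 TPM and Type D Control at 26.0 ± 8.58 TPM were close to each other, and Type V Control was lowest at 15.2 ± 5.6 TPM. Neighbours in this order differed by less than the larger of their SDs, except the lowest pair, where the gap was larger than either SD.

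Xbp1 had another order. Type V Restored + CsA at 123 ± 83.8 TPM and Type V Control + CsA at 122 ± 36.1 TPM stood highest, followed by Type D Control + CsA at 99.4 ± 9.29 TPM. Type V Control at 73.4 ± 14.1 TPM, Type D Restored + CsA at 72.2 ± 34.8 TPM and Type D Control at 69.5 ± 12.2 TPM lay together, above Type V Restored at 64.0 ± 14.5 TPM and Type D Restored at 53.1 ± 17.7 TPM. Here too neighbours differed by less than the larger of their SDs, except Type D Control + CsA against Type V Control.

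The members did not move as a single block across the libraries. After the mean of each line was subtracted, Xbp1 followed the mean of the other 9 genes most closely (Pearson r = 0.95 over 24 libraries), then Manf (0.85), Hspa5 (0.80), Hyou1 (0.73) and Hsp90b1 (0.69). Pdia6, Herpud1 and Sdf2l1 were at 0.53, 0.53 and 0.51, Edem1 was at 0.33 and Dnajb9 at -0.14. The closest pair was Xbp1 with Manf at 0.92, and Dnajb9 was nearest to Edem1 at 0.75. The libraries share lines and treatments, so these values are descriptions without a test.

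Outside the set, the 8 tested genes whose pattern within lines was most like the mean of the members had r of 0.88 to 0.90 over the same 24 libraries. They were Txndc11 (0.90), Selenos (0.89), Creb3l2 (0.89), Nucb2 (0.89), Bet1 (0.89), Syvn1 (0.89), Surf4 (0.88) and P4hb (0.88). Among them Syvn1 encodes the ubiquitin ligase HRD1 of ER-associated degradation, P4hb a protein disulfide isomerase, and Bet1 and Surf4 proteins of traffic between ER and Golgi. Each of these 8 genes was higher with CsA in 6 of 6 lines without restoration, which is part of the pattern they were picked on.

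The other arms of the pathway were read from lists of known genes, under CsA without restoration in 6 lines. Of 16 tested ER chaperones and folding enzymes outside the set, 13 were higher and 3 lower, with a median of 0.19 and Txndc11 largest at 0.58 (SE 0.22). Of 21 tested genes of ER-associated degradation and translocation, 18 were higher, with a median of 0.26 and Sec61b, a subunit of the ER translocation channel, largest at 0.57 (SE 0.21). All 8 sensors and proteases had a higher mean, with a median of 0.16 and the ATF6-like factor Creb3l2 largest at 0.58 (SE 0.21). None of these genes passed in limma without the block.

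All 10 genes of the PERK and ATF4 branch had a higher mean with CsA, with a median of 0.45, and Chac1, a glutathione-degrading target of this branch, was largest at 1.13 (SE 0.36, limma adjusted p = 1; replicate block adjusted p = 0.0897). The 10 cytosolic heat shock genes stood on the other side, all with a lower mean, a median of -0.15 and Hsph1 lowest at -0.47 (SE 0.14). The 6 mitochondrial chaperones had a median of 0.03. Over all of these lists, 3 genes passed in limma with the replicate block, where 0.269% of all genes did. Hsph1 (adjusted p = 0.045) was 1 of the 10 heat shock genes. Edem2 at 0.43 (adjusted p = 0.0419) and Sec61a1 at 0.54 (adjusted p = 0.045) were named after their values were seen. Both are from the 22 genes listed for ER-associated degradation and translocation. Over all tested genes the median was -0.02.

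**Figure D4:**
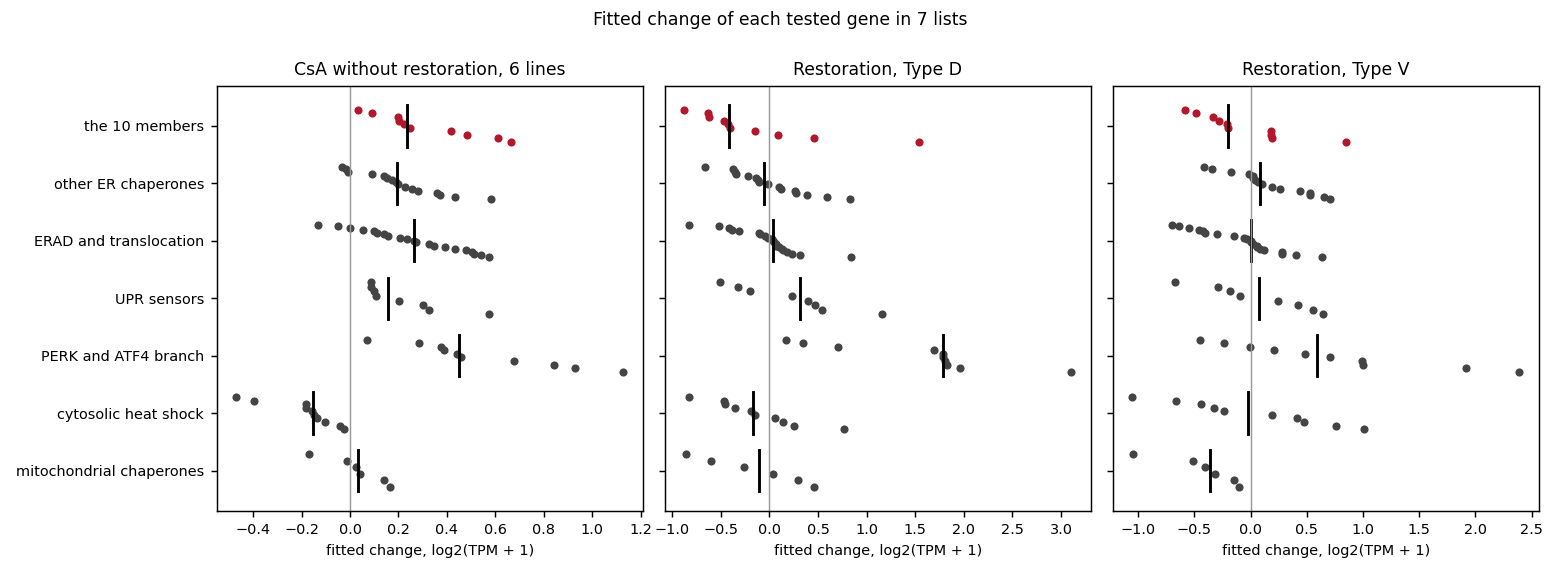
Fitted difference of each tested gene on the log2(TPM + 1) scale (horizontal axes, with their own ranges) in 7 lists (vertical axis), for CsA without restoration in 6 lines and for restoration in either type. Each dot is 1 gene, the vertical bar is the median of the list, and the 10 genes described here are in red. With CsA all 10 heat shock genes lie below 0 and all 10 genes of the PERK and ATF4 branch above it, and in Type D restoration the median of that branch is 1.79.

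Under restoration in Type D, 6 of the 10 genes of the PERK and ATF4 branch were called higher, against 4.49% of all genes, and the list had a median of 1.79. Sesn2 rose by 3.11 (SE 0.35, limma adjusted p = 5.58e-06), Atf3 by 1.82 (SE 0.56, adjusted p = 0.0381), Ddit4 by 1.81 (SE 0.47, adjusted p = 0.0135) and Ddit3, which encodes CHOP, by 1.79 (SE 0.47, adjusted p = 0.0159). Sesn2 and Ddit4 are also known as targets of p53. Ern1, which encodes the sensor IRE1, rose by 1.16 (SE 0.27, adjusted p = 0.00638) and was the only one of 8 sensors and proteases to pass. Over all genes 12.9% passed in this comparison. Of the other ER chaperones 0 of 16 passed, of the degradation and translocation list 1 of 21 (Herpud2, 0.83, adjusted p = 0.0415), of the heat shock genes 0 of 10, and of the mitochondrial chaperones 2 of 6, both lower, with Hspd1 lowest at -0.85 (adjusted p = 0.0263).

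In Type V, 2 of 10 genes of the PERK and ATF4 branch were called higher, against 3.39% of all genes, Sesn2 at 2.39 (SE 0.35, limma adjusted p = 0.000145) and Ddit4 at 1.91 (SE 0.47, adjusted p = 0.0114), and the list had a median of 0.59. Over all genes 9.95% passed and 1.9% were called lower. Of the heat shock genes 2 of 10 passed, both lower, with Hsph1 called at -1.05 (SE 0.20, adjusted p = 0.00201). The mitochondrial chaperone Hspd1 was called at -1.04 (SE 0.25, adjusted p = 0.009), and Atf6b, a relative of ATF6, passed at -0.67 (SE 0.19, adjusted p = 0.0298). None of the 16 other ER chaperones or the 21 genes of degradation and translocation passed. More genes of these lists passed in both types with the replicate block. In Type D, where 45.3% of all genes passed with the block, these were 7 of 16 chaperones and folding enzymes (3 higher and 4 lower), 6 of 21 of degradation and translocation (2 and 4), 6 of 8 sensors (4 and 2), 7 of 10 of the PERK branch, 5 of 10 heat shock genes (1 and 4) and 2 of 6 mitochondrial chaperones. In Type V, where 40.6% of all genes passed, they were 7 of 16 (6 higher and 1 lower), 10 of 21 (4 and 6), 4 of 8 (3 and 1), 4 of 10, 8 of 10 (4 and 4) and 3 of 6 in the same order of lists.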

How the data were processed

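The deposited file gives TPM for 25239 genes in 24 libraries, made by the authors from stranded mRNA libraries and single-end reads. The study's methods name kallisto or HISAT2 and write mm10 and GRCm39 for 1 step, so the tool and build behind the table are not certain. TPM sums to 1e+06 in each library and holds no counts, so the depth is unknown.

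Values were analysed as log2(TPM + 1), with a pseudocount of 1 that understates changes of low genes. Genes that reached a TPM of 1 in 3 or more libraries, 14104 in all, entered a limma model (version 3.58.1, R 4.3.3, eBayes with a trend) in which each of the 8 groups had its own mean. Adjusted p are Benjamini-Hochberg over all tested genes within a comparison, for 12 comparisons and 1 added later, and all tests were two-sided. A gene passed at an adjusted p under 0.05 and was called at a log2 difference of at least 1 as well. In the main fit, p-values measure the spread of libraries about their group mean, pooled over the 8 groups. This spread includes differences between lines, and the 4 libraries of a line enter as if independent. Confidence intervals are from this fit. With the replicate block, p-values measure the spread that is left once the mean of each line is removed.

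The 4 libraries of a line pair by the line named in the labels. After group means were removed, libraries of 1 line correlated at r of 0.599 to 0.929 (36 pairs), and those of different lines of a type at -0.675 to 0.0438 (72 pairs). The line was a block in an alternative fit. Both fits were tried on simulated data with changes set only in Type D restoration, so the CsA comparisons were not covered.

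The members and lists were chosen with earlier results of these data known. All members are named. The value of 1 marker gene is not reported here. From each other list, up to 4 called genes by size of change are named, or else the gene with the largest change, besides the 8 genes most like the members. Python 3.11.15 and matplotlib 3.10.9 drew the figures.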

Additional observations from a re-analysis of the deposited data

How the results depend on the processing

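Alternatives were a pseudocount of 0.1, no filter on low values (20066 genes), a higher minimum of 5 TPM (11785 genes), median-ratio scaling, quantile normalization, the replicate block, a fit of only the compared groups, and leaving out each line in turn. In Type D restoration, the 2 members that passed became 6 with the replicate block, 0 with only the compared groups, and 0 to 2 without single lines (0 without 4711-18, 1 without 4711-1 or 4716-11). The 1 called member became 0 with only the compared groups and 0 to 1 without single lines. In Type V restoration, the 0 members that passed became 3 with the replicate block, and the median lay between -0.225 and -0.11 without single lines, the latter without line 4711-11. In Control, the 1 member that differed between types became 0 with only the compared groups and 0 to 2 without single lines, and the 1 called member became 0 with only the compared groups and 0 to 1 without single lines. Among the member values followed, the signs of Hspa5 and Sdf2l1 turned near zero. Hspa5 in Type D restoration was -0.00826 with median-ratio scaling and -0.0908 to 0.206 without single lines. Sdf2l1 there was -0.274 to 0.00685, and with CsA after restoration it was -0.07 to 0.201. Herpud1 in Type V restoration was -0.161 to 0.375 without single lines. It rose in only 1 Type V line, by 0.904. Its mean difference of 0.194 turned to -0.161 without that line, so its sign rested on that line. The cause of these changes was not tested, beyond fewer lines or samples in the fits that leave some out. No CsA comparison gained a member that passed under any alternative, and the block changed no other call of a member.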
